A study of Mus musculus with 4 samples.

Results

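Expression of 41 endothelial and angiogenesis genes was followed in mouse skin, across 4 libraries of bulk RNA labelled PRP-MNs, PRP, MNs and NC. The genes were taken by symbol from a list of vessel genes, and all 41 members were present in the deposited table of 25571 genes. By role they were 20 pan-endothelial genes, 5 tip cell and sprouting genes, 4 adhesion genes, 3 lymphatic genes, 4 VEGF ligands, 4 VEGF receptors and angiopoietin-1. PRP is platelet-rich plasma, a concentrate of blood platelets that carries growth factors, and MNs are microneedles, fine needles on a patch that pierce the outer skin. PRP-MNs skin received microneedles with PRP, PRP skin and MNs skin are labelled with one of these alone, and NC, which the labels do not spell out, served as the reference. The series title concerns hair regrowth. Strain, sex, age, dose, time of harvest, hair cycle stage and the number of animals behind a library are not stated in the sources used here.

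Each group had 1 library, so no difference below has a replicate check, no p-value or SD could be given, and each value describes a library rather than a treatment. Values are FPKM, in which the fragments of a gene are divided by transcript length and by library depth. From the spacing of low values, depth was about 15.9 to 19.4 M fragments per library. On a transcript of 1 kb, 3 fragments were worth between 0.155 and 0.189 FPKM, limits that cover counting error only. Differences are log2 ratios after adding 1 to each FPKM. This makes the difference of low genes look smaller, so the plain FPKM ratio is also given for members with low values. At least 2-fold means a difference of 1 or more on that scale. The background is the 14475 genes that reached 1 FPKM in any library. All 41 members reached that level, 26 of them in NC as well, whereas Esm1, Prox1 and Vegfc reached it in 1 library only. In bulk RNA, more endothelial cells and more RNA per cell cannot be told apart.

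Blood vessels are lined by endothelial cells held together by VE-cadherin (Cdh5) and PECAM-1. New vessels sprout when VEGF-A binds VEGF receptor 2 (Kdr) on these cells. A leading tip cell then carries Dll4, Apln, Esm1 and Angpt2, and Notch signalling holds its neighbours back as stalk cells. Inflamed endothelium displays selectins and the immunoglobulin-type adhesion molecules ICAM-1 and VCAM-1, which catch passing leukocytes. Lymphatic vessels are set apart by the transcription factor Prox1, by VEGF receptor 3 (Flt4) and by podoplanin (Pdpn). In skin, the vessel network around the hair follicle is known to widen in the growth phase of the hair cycle and to shrink afterwards.

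Promoters are shown for 3 adhesion genes and for Kdr, because these classes are known targets of NF-kappaB and of ETS factors respectively. The sequences are from RefSeq on GRCm38.p6, in a promoter table in which 26 of the 41 genes were matched, and end at or before the annotated start site. Each is written 5′ to 3′ on the gene's strand, and capitals mark the motif searched for. For Sele the window is chr1:164047984-164048233 (+), for Selp chr1:164115014-164115263 (+), for Icam1 chr9:21015690-21015939 (+) and for Kdr chr5:75978459-75978705 (-).
Sele: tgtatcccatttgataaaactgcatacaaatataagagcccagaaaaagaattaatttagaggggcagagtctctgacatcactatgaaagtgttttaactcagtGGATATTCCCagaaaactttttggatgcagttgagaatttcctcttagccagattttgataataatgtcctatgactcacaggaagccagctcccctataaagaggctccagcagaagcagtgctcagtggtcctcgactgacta
Selp: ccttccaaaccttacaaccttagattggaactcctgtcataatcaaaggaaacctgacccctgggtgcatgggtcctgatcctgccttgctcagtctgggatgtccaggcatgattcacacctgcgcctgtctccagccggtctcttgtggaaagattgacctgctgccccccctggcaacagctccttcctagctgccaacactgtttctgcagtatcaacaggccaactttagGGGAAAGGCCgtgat
Icam1: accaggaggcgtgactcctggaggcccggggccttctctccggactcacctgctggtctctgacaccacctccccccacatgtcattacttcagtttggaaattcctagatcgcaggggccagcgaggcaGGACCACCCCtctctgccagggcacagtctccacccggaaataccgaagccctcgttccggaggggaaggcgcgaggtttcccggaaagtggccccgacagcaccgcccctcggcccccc
Kdr: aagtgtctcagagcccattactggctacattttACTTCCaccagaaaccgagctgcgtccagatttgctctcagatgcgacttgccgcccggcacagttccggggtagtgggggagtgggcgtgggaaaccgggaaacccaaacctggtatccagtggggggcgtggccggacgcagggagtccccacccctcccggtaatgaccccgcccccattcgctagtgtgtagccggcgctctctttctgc
In the first 3 the capitals mark the general form of an NF-kappaB site, GGG and CC with 5 bases of any kind between them, on either strand. It was found in the 250 bases upstream of 21 of the 26 members in the table, these 3 included, and of 48.7% of all 27025 genes there. The remaining adhesion gene, Vcam1, was not among those 21 and is not shown. In Kdr the capitals mark the reverse complement of GGAAGT, an ETS site. It was held by 5 of the 26 members (Egfl7, Eng, Flt1, Kdr and Tie1), against 22.2% of all genes. ACGTG, the core of the hypoxia response site, was found in 2 of the 26 (Pdpn and Vegfa), against 18.5% of all genes. These matches are letters only and show no binding.

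Against NC, most vessel genes were higher in every treated library, most widely in PRP-MNs. In PRP-MNs 37 of the 41 genes were at least 2-fold higher, where 17% of all genes were, and none was at least 2-fold lower, where 11.1% of all genes were. In MNs 33 of 41 were at least 2-fold higher, against 15.1% of all genes, and in PRP 19 of 41, against 7.27%. No member was at least 2-fold lower in MNs or in PRP, where 6.85% and 1.36% of all genes were. The median difference of the 41 genes was 2.42 in PRP-MNs, 1.86 in MNs and 0.94 in PRP, beside 0.13, 0.16 and 0.05 over all genes. These 3 comparisons share the NC library. NC was the lowest library for 40 of the 41 genes, against 41.3% of all genes, and the exception was Vegfb, lowest in MNs. Without the 19 members that leukocytes, platelets, epidermis or stroma are known to make as well, 22 of 22 passed 2-fold upward in PRP-MNs, 20 in MNs and 11 in PRP.

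**Figure D1:**
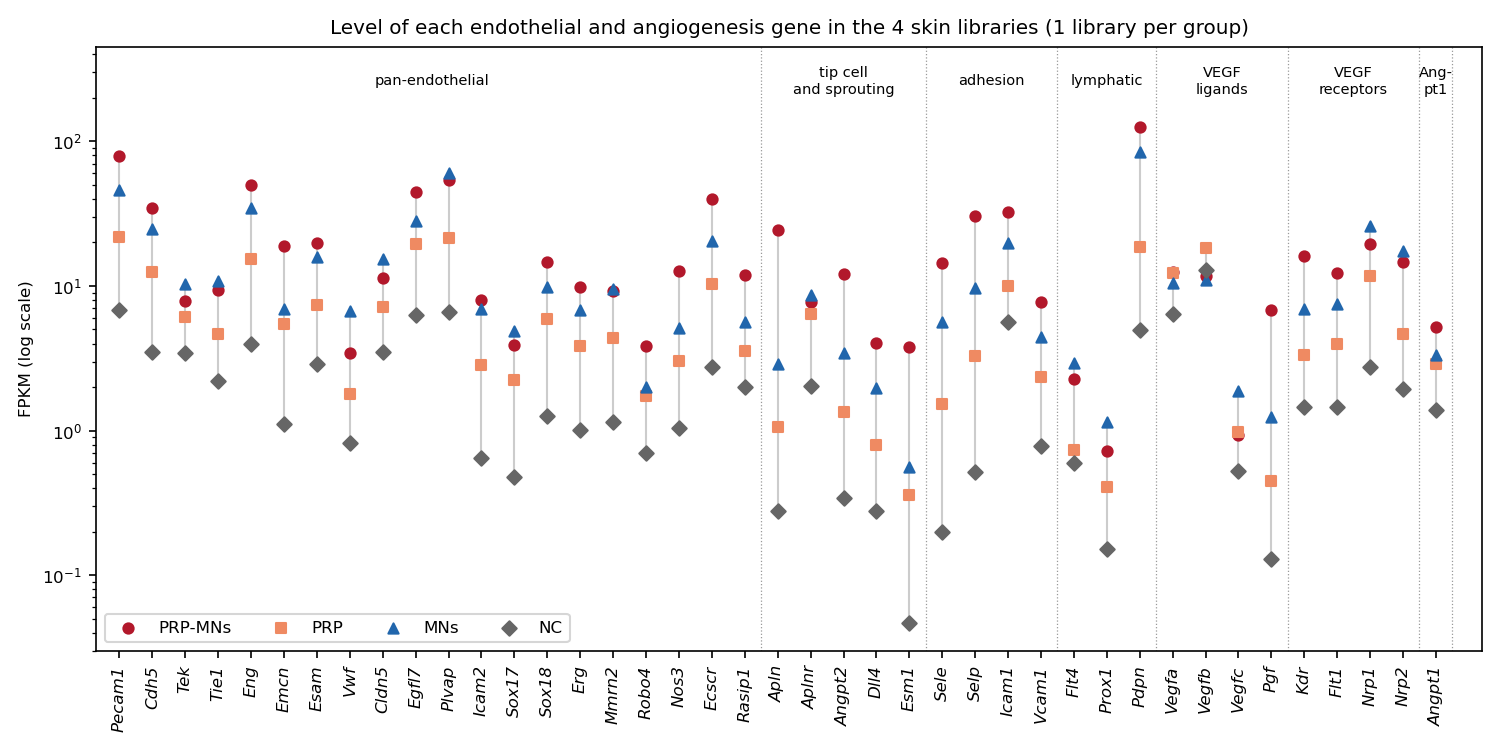
Level of each of the 41 genes (horizontal axis, grouped by role) in FPKM on a log scale, with 1 point for each of the 4 libraries and a grey line from the lowest to the highest. NC is the lowest point for 40 genes, and PRP-MNs is the highest for 27 and MNs for 13.

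The pan-endothelial genes stood in the order PRP-MNs or MNs first, then PRP, then NC. Cdh5, the junction protein VE-cadherin, was at 34.9 (PRP-MNs), 24.9 (MNs), 12.5 (PRP) and 3.48 FPKM (NC). Pecam1, an adhesion protein of endothelial junctions that platelets and leukocytes also carry, was at 79.1, 46.5, 21.9 and 6.83 FPKM in the same order. Against NC, all 20 pan-endothelial genes passed 2-fold upward in PRP-MNs, with a median of 2.44. With centring on the median of all genes or upper quartile scaling it was 19 of 20, since Tek was then at 0.88 and 0.86. The median was 2.03 in MNs, with 19 of 20 at least 2-fold higher, and 1.25 in PRP, with 13 of 20. In PRP-MNs the differences ran from 1.01 for Tek, the angiopoietin receptor, to 3.45 for Ecscr, an endothelial surface protein of cell migration. The receptor-like genes Eng, a TGF-beta co-receptor, at 49.8 (PRP-MNs) and 4.0 FPKM (NC), and Emcn, the mucin endomucin of capillaries and veins, at 18.8 and 1.11 FPKM, were also near the top of that range. Tie1, the orphan partner of Tek, stood at 9.45 and 2.19 FPKM.

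The transcription factors among the pan-endothelial members, Erg, Sox18 and Sox17, followed the surface genes. Erg, an ETS factor that maintains endothelial identity, was at 9.86 (PRP-MNs), 6.80 (MNs), 3.83 (PRP) and 1.01 FPKM (NC). Sox18, a factor of vessel and lymphatic development, was at 14.6, 9.83, 5.90 and 1.25 FPKM in that order. Sox17, a factor of arterial identity, was at 3.93 (PRP-MNs) and 4.86 (MNs), against 2.25 (PRP) and 0.47 FPKM (NC). All 3 were at least 2-fold higher in each treated library than in NC. Nos3, the endothelial nitric oxide synthase, was at 12.7 (PRP-MNs), 5.09 (MNs), 3.01 (PRP) and 1.04 FPKM (NC). Plvap, which forms the diaphragms of permeable capillaries, was highest in MNs at 60.7 FPKM, with 54.0 (PRP-MNs), 21.4 (PRP) and 6.63 FPKM (NC). The tight junction gene Cldn5 was likewise highest in MNs, at 15.4 FPKM, with 11.4 (PRP-MNs), 7.13 (PRP) and 3.51 FPKM (NC). Vwf, the clotting factor stored in endothelium and platelets, was at 6.69 (MNs), 3.45 (PRP-MNs), 1.78 (PRP) and 0.82 FPKM (NC). The other 8 pan-endothelial genes (Ecscr, Esam, Egfl7, Icam2, Mmrn2, Robo4, Rasip1 and Tek) lay between 3.87 and 44.8 FPKM (PRP-MNs) and between 0.64 and 6.30 FPKM (NC).

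Tip cell and sprouting genes were low in NC and, except for Aplnr, highest in PRP-MNs. Apln encodes apelin, a peptide of sprouting endothelium, and lies on chromosome X from 48025146 to 48034853 (GRCm38). It was at 24.3 (PRP-MNs), 2.87 (MNs), 1.06 (PRP) and 0.28 FPKM (NC). The PRP-MNs library thus stood apart from the other 3, at 8.47 times the FPKM of MNs and 87.8 times that of NC. The NC value of Apln corresponded to about 17 fragments. Angpt2 (chromosome 8, 18690263 to 18741562) encodes angiopoietin-2, which endothelium releases to loosen the vessel wall. It was at 12.1 (PRP-MNs), 3.44 (MNs), 1.34 (PRP) and 0.34 FPKM (NC), so PRP-MNs was at 3.52 times MNs and 35.7 times NC. Dll4, the Notch ligand of tip cells, was at 4.0, 1.97, 0.79 and 0.28 FPKM in the same order. Esm1 (chromosome 13, 113209659 to 113218098), the tip cell proteoglycan endocan, was at 3.77 FPKM (PRP-MNs) and below 1 FPKM in the other libraries, with 0.56 (MNs), 0.36 (PRP) and 0.046 FPKM (NC). Its NC value corresponded to about 2 fragments, which gave a ratio of PRP-MNs to NC of 76.3 with an exact 95% counting interval of 20.7 to 637. Aplnr, the apelin receptor, did not share this order, with 8.72 (MNs), 7.70 (PRP-MNs), 6.41 (PRP) and 2.03 FPKM (NC). On the log2 scale the 5 genes had a median difference from NC of 2.19 in PRP-MNs, 1.60 in MNs and 0.69 in PRP. With a pseudocount of 0.1 in place of 1, these medians were 4.72, 2.46 and 1.62.

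The adhesion genes of activated endothelium had a median difference from NC of 3.01 in PRP-MNs, 2.07 in MNs and 1.00 in PRP. With a pseudocount of 0.1 these were 4.38, 3.18 and 1.97. Sele, E-selectin, which activated endothelium makes, was at 14.3 (PRP-MNs), 5.64 (MNs), 1.53 (PRP) and 0.20 FPKM (NC). Selp, P-selectin, which is held in granules of endothelium and platelets, was at 30.6, 9.68, 3.29 and 0.52 FPKM in that order. In PRP-MNs these values were 72.7 times and 58.8 times those of NC, and in MNs 28.6 times and 18.6 times. The NC values corresponded to only about 11 fragments for Sele and 35 for Selp. Icam1, a ligand of leukocyte integrins that leukocytes and keratinocytes can also make, was at 32.7 (PRP-MNs), 19.9 (MNs), 9.99 (PRP) and 5.61 FPKM (NC). Vcam1, the ligand of integrin alpha-4, was at 7.76, 4.45, 2.36 and 0.78 FPKM. Both stood at smaller ratios to NC than Sele and Selp, 5.83 times for Icam1 and 9.99 times for Vcam1 in PRP-MNs. Icam2, like Icam1 a ligand of leukocyte integrins, is constitutive and is grouped here with the pan-endothelial genes. Icam2 was at 8.02 (PRP-MNs), 6.92 (MNs), 2.85 (PRP) and 0.64 FPKM (NC).

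Sele and Selp both lie on the plus strand of chromosome 1 (GRCm38), Sele from 164048234 to 164057677 and Selp from 164115264 to 164150026. The 10 genes of leukocyte partners of these adhesion proteins had a median difference from NC of 2.95 in PRP-MNs, 1.53 in MNs and 1.36 in PRP. In PRP-MNs 8 of the 10 were at least 2-fold higher, against 17% of all genes. Among them was Itgb2, the beta-2 integrin chain, at 93.8 (PRP-MNs) and 3.78 FPKM (NC). The 2 lowest of that list were Glg1, a ligand of E-selectin, at 19.7 (PRP-MNs) and 9.99 FPKM (NC), and Spn, the leukocyte sialoglycoprotein CD43, at 3.03 FPKM and 1.11 FPKM.

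The 3 lymphatic genes differed among themselves. Pdpn (chromosome 4, 143267431 to 143299564), which fibroblasts, macrophages and wounded epidermis also make, was at 125 (PRP-MNs), 84.9 (MNs), 18.7 (PRP) and 5.0 FPKM (NC). Flt4, VEGF receptor 3, was highest in MNs at 2.93 FPKM, with 2.26 (PRP-MNs), 0.74 (PRP) and 0.60 FPKM (NC). Prox1, the factor that fixes lymphatic identity, was at 1.15 (MNs), 0.72 (PRP-MNs), 0.41 (PRP) and 0.15 FPKM (NC). Pdpn and Flt4 were at least 2-fold higher than NC in PRP-MNs and in MNs, while Prox1 was under 2-fold in all 3 comparisons, although its plain FPKM ratios to NC were 4.73 in PRP-MNs and 7.56 in MNs. Flt4 in PRP-MNs lay close to 2-fold, at 1.03, and fell short of it with differences centred on the median of all genes (0.90) and with upper quartile scaling (0.94). Among 8 other lymphatic genes, 6 were at least 2-fold higher in MNs than in NC (median 1.83), against 15.1% of all genes. In PRP-MNs 2 were higher and 2 lower (median 0.53), against 17% and 11.1% of all genes. The higher ones were Nr2f2, a factor of veins and lymphatics, at 5.45 (PRP-MNs) and 0.87 FPKM (NC), and Itga9, an integrin of lymphatic valves, at 4.79 and 0.93 FPKM. Ccl21a, the chemokine by which lymphatic vessels draw in dendritic cells, was at 0.96 (PRP-MNs), 78.2 (MNs), 15.5 (PRP) and 13.7 FPKM (NC). Lyve1, the hyaluronan receptor of lymphatic endothelium and some macrophages, was at 2.91, 33.9, 6.57 and 7.84 FPKM. These 2 markers were thus lowest in PRP-MNs and highest in MNs, unlike Pdpn. Ccl21a has close copies in the mouse genome, and its value is uncertain where fragments were split between them.

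Of the VEGF ligands, only Pgf, in PRP-MNs, was at least 2-fold higher than NC on the log2 scale used here. Vegfa, the main driver of sprouting, was at 12.6 (PRP-MNs), 12.3 (PRP), 10.4 (MNs) and 6.45 FPKM (NC). Its difference from NC was 0.87 in PRP-MNs and passed 2-fold (1.01) only with every library rescaled to the same FPKM sum. With that scaling Pgf (1.05) and Vegfc (1.01) also passed it in MNs. Both did so as well with a pseudocount of 0.5 (1.46 and 1.21) and of 0.1 (2.54 and 1.65). Pgf also passed it in MNs with the sum without mitochondrial genes (1.03), and in PRP with a pseudocount of 0.1 (1.25). Vegfb, a ligand of VEGF receptor 1, was at 18.4 FPKM (PRP) and between 11.1 and 12.8 FPKM in the other libraries. It was the only member with a lower value in PRP-MNs and in MNs than in NC. Vegfc, the lymphatic ligand, was at 1.87 (MNs), 0.98 (PRP), 0.93 (PRP-MNs) and 0.53 FPKM (NC), a plain ratio of MNs to NC of 3.55. Pgf (chromosome 12, 85166635 to 85177790), placental growth factor, which binds VEGF receptor 1, was at 6.87 (PRP-MNs), 1.23 (MNs), 0.45 (PRP) and 0.13 FPKM (NC). Its plain ratio to NC was 53.1 in PRP-MNs and 9.51 in MNs, and the NC value corresponded to about 5 fragments.

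The VEGF receptors were at least 2-fold higher than NC in all 4 cases in PRP-MNs and in MNs, with medians of 2.44 and 2.22, and in 2 of 4 in PRP (Flt1 and Nrp1). Flt1 in PRP was at 1.01 and fell short of 2-fold with centring (0.96) and with upper quartile scaling (0.97). Kdr (chromosome 5, 75932827 to 75978458), VEGF receptor 2, was at 16.2 (PRP-MNs), 6.91 (MNs), 3.33 (PRP) and 1.47 FPKM (NC). Flt1, VEGF receptor 1, which also acts as a decoy and is made by monocytes too, was at 12.3, 7.51, 3.96 and 1.47 FPKM in that order. The co-receptors had another order. Nrp1, neuropilin-1, was at 26.2 (MNs), 19.4 (PRP-MNs), 11.7 (PRP) and 2.73 FPKM (NC), and Nrp2, neuropilin-2, at 17.4, 14.7, 4.64 and 1.94 FPKM. Angpt1, the angiopoietin that mural cells supply to keep vessels stable, was at 5.23 (PRP-MNs), 3.32 (MNs), 2.86 (PRP) and 1.39 FPKM (NC). Angpt1 exceeded Angpt2 in PRP and NC, and Angpt2 exceeded Angpt1 in PRP-MNs and, by 3.44 to 3.32 FPKM, in MNs.

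Between PRP-MNs and MNs most of the 41 genes differed by less than 2-fold. Of the 41 genes, 28 were higher in PRP-MNs and 13 in MNs, and the median difference was 0.52 (-0.02 over all genes). At least 2-fold higher in PRP-MNs were 9 of 41, against 6.89% of all genes, and none was at least 2-fold lower, against 7.12%. The 9 were Apln, Pgf, Esm1, Selp, Angpt2, Emcn, Sele, Nos3 and Kdr. The pan-endothelial genes ran from -0.79 for Vwf to 1.33 for Emcn, with a median of 0.47, and 7 of the 20 (Tek, Tie1, Vwf, Cldn5, Plvap, Sox17 and Mmrn2) were lower in PRP-MNs than in MNs. Above this whole range lay 5 of the other 21 members, where 4.46% of all genes did. They were Apln at 2.71, Pgf at 1.82, Esm1 at 1.62, Selp and Angpt2 at 1.56. On plain FPKM ratios the 5 above the pan-endothelial range were the same genes, at 8.47 times for Apln, 6.78 for Esm1, 5.58 for Pgf, 3.52 for Angpt2 and 3.16 for Selp. Below the range lay none of the 21 on the log2 scale and Vegfc on plain ratios, at 0.50 times against 0.52 for Vwf. This difference rests on 1 library on each side and was not tested.

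**Figure D2:**
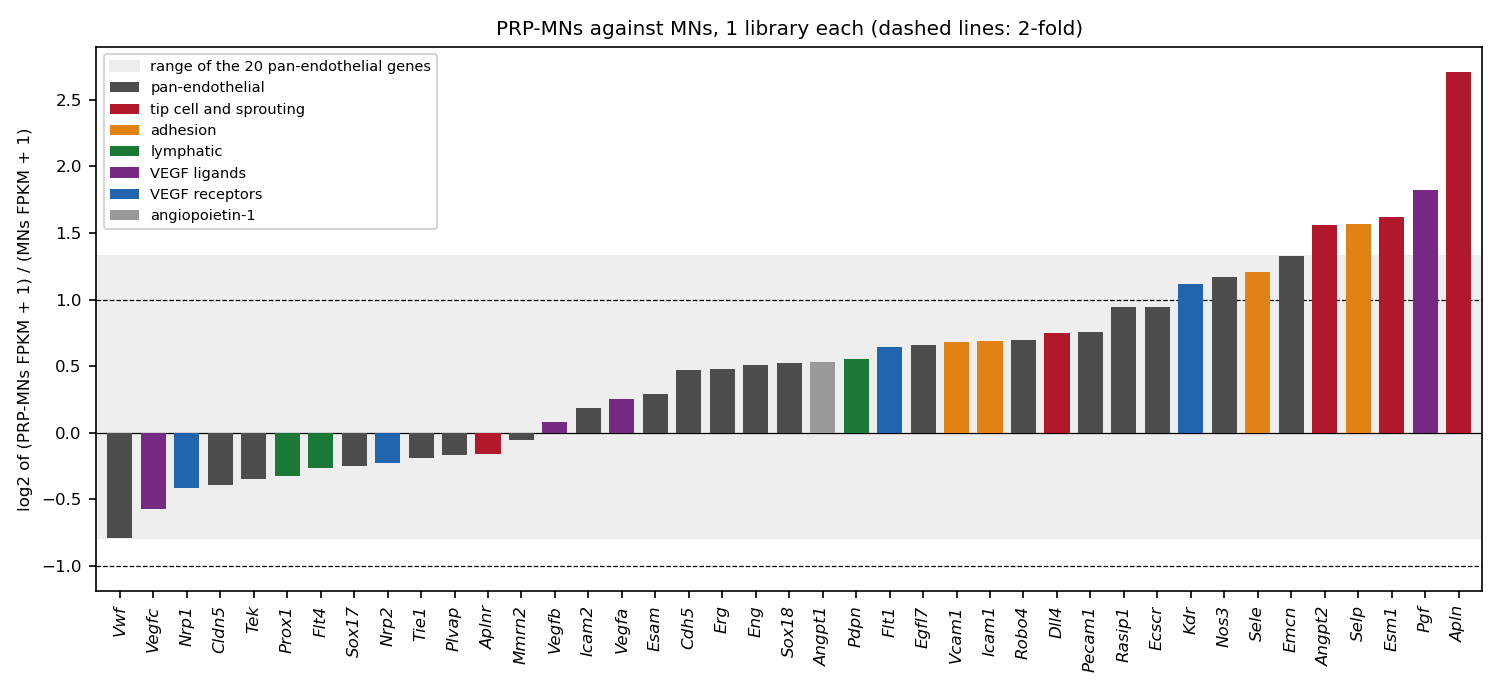
Bars give the log2 ratio of FPKM + 1 between the PRP-MNs and MNs libraries (vertical axis) for each of the 41 genes, coloured by role and sorted. The grey band is the range of the 20 pan-endothelial genes, from -0.79 to 1.33, and Apln, Pgf, Esm1, Selp and Angpt2 end above it.

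PRP was below MNs for most vessel genes. The median difference of PRP from MNs was -0.87 over the 41 genes and -0.09 over all genes. Of the 41, 14 were at least 2-fold lower in PRP, against 5.73% of all genes, and none was at least 2-fold higher, against 4.42%. With differences centred on the median of all genes, 9 of 41 were at least 2-fold lower, and with a pseudocount of 0.1, 22 of 41. Pdpn differed by -2.12, Nrp2 by -1.70, Vwf by -1.47 and Plvap by -1.46. Higher in PRP were only Vegfa (0.21) and Vegfb (0.69).

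Each treatment was present in some libraries and absent in others. What is called the microneedle difference here was read from 2 pairs of libraries that share none, MNs against NC and PRP-MNs against PRP. The dose of PRP is not stated, and its route and dose may differ between PRP-MNs and PRP. The second pair therefore need not differ by microneedles alone. With PRP present, 26 of the 41 genes passed 2-fold upward in PRP-MNs against PRP, beside 9.14% of all genes, and none was at least 2-fold lower, against 7.18%. The median was 1.30, compared with 1.86 for MNs against NC. On plain FPKM ratios, the median member was 6.81 times as high in MNs as in NC and 2.81 times as high in PRP-MNs as in PRP. For 37 of 41 the ratio was smaller with PRP present, as it was for 58.2% of the 14191 background genes above 0 in every library. The 4 with a larger ratio were Apln (10.4 without PRP and 23.0 with it), Pgf (9.51 and 15.4), Kdr (4.72 and 4.86) and Rasip1, a regulator of vessel lumen formation (2.83 and 3.35). On the log2 scale, the microneedle difference was at least 2-fold smaller with PRP for 15 of 41 genes, against 10.9% of all genes. It was at least 2-fold larger for 3 of 41 (Apln, Pgf and Esm1), against 4.74%. Esm1 depends on the scale, since its plain ratios were 12.0 without PRP and 10.4 with it. So do Angpt2, Dll4, Nos3, Sele, Selp and Robo4, whose log2 difference was larger with PRP, by 0.01 to 0.76. Their plain ratios were smaller with PRP, as for Sele at 28.6 without it and 9.38 with it. No interaction could be tested with 1 library per group.

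**Figure D3:**
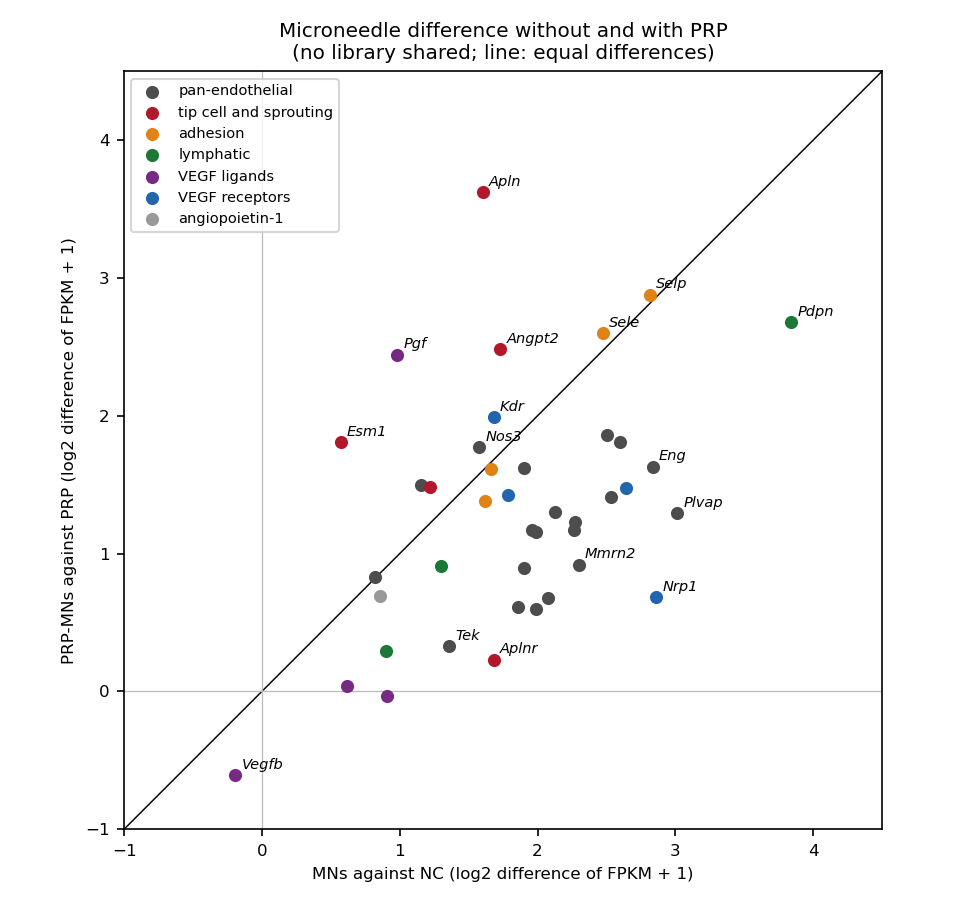
Each point is 1 of the 41 genes, coloured by role, with the log2 difference of MNs from NC on the horizontal axis and of PRP-MNs from PRP on the vertical axis. Most points lie below the line of equal differences, and Apln lies farthest above it, at 1.60 and 3.62.

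Other genes of vessels and of sprouting were read from lists beside the 41 members. Over all genes, 17% passed 2-fold upward and 11.1% downward in PRP-MNs against NC. The shares were 15.1% and 6.85% in MNs, and 7.27% and 1.36% in PRP. Of 28 other endothelial genes, the 2-fold mark was passed upward by 22 and downward by 2 in PRP-MNs against NC (median 1.47), by 21 and 1 in MNs (1.33), and upward by 12 in PRP (0.93). The highest were Cd93, a receptor of endothelium and myeloid cells, at 30.5 (PRP-MNs) and 1.67 FPKM (NC), and Podxl, a sialomucin of the vessel lumen, at 16.0 and 1.54 FPKM. The 2 lower ones were Klf4, a factor of flow-exposed endothelium that epidermis also makes strongly (44.1 and 256 FPKM), and Sox7 (5.54 and 15.5 FPKM). Of 12 other tip cell genes, 8 passed 2-fold upward in PRP-MNs (median 2.54) and 8 in MNs (2.29). In PRP-MNs against MNs their median was 0.03, below the 0.47 of the pan-endothelial genes. In that comparison 3 of the 12 were at least 2-fold higher and 1 lower, against 6.89% and 7.12% of all genes. Plaur, the urokinase receptor, stood at 110.2 (PRP-MNs) and 2.78 FPKM (NC), and Cxcr4, a chemokine receptor of tip cells and leukocytes, at 26.5 and 0.38 FPKM. At the other end were Unc5b, a netrin receptor (1.68 and 3.14 FPKM), and Cd276 (6.40 and 4.76 FPKM). The 9 Notch genes of vessels were split, with a median of 0.22 in PRP-MNs. Notch4, the endothelial receptor, was at 3.48 (PRP-MNs) and 0.26 FPKM (NC), and Rbpj, the nuclear partner of Notch, at 46.2 and 12.7 FPKM. Jag2, a ligand also made by epidermis, was at 10.2 and 25.5 FPKM, and the Notch target Nrarp at 21.2 and 44.9 FPKM.

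Markers of other cell types also differed between the libraries, some upward and some downward, and their part in the differences of the vessel genes was not tested. The counts below stand beside shares of all genes of 17% upward and 11.1% downward in PRP-MNs against NC. These shares were 15.1% and 6.85% in MNs, and 7.27% and 1.36% in PRP. All 10 leukocyte markers passed 2-fold upward in PRP-MNs against NC, and their summed level was 2909 (PRP-MNs), 1055 (PRP), 1004 (MNs) and 285 FPKM (NC). The differences of PRP from MNs for single leukocyte markers ran from -0.85 to 0.75, with a median of -0.17. The summed pan-endothelial level was 448 (PRP-MNs), 332 (MNs), 161 (PRP) and 52.2 FPKM (NC). Of 10 keratinocyte markers, 9 passed 2-fold downward in PRP-MNs against NC, with sums of 4215 (PRP-MNs), 7886 (MNs), 13099 (PRP) and 18618 FPKM (NC). Fibroblast markers summed to 7645 FPKM (MNs), 2067 (PRP), 1128 (PRP-MNs) and 1025 FPKM (NC), but single ones differed in direction. Of 10, 2 passed 2-fold upward and 1 downward in PRP-MNs, 9 upward in MNs and 6 upward in PRP. The highest differences in PRP-MNs were those of Pdgfra (45.6 and 4.75 FPKM in NC) and Fbn1 (30.1 and 8.49 FPKM). The lowest were those of Pi16 (11.6 and 40.8 FPKM) and Dpt (64.9 and 94.4 FPKM). Of 10 markers of pericytes and smooth muscle, 7 passed 2-fold upward in PRP-MNs (median 1.32) and 8 in MNs (1.92), led in PRP-MNs by Acta2, smooth muscle actin, at 100.5 (PRP-MNs) and 16.5 FPKM (NC), and Pdgfrb, a receptor of pericytes and fibroblasts, at 19.5 and 2.58 FPKM. The lowest 2 were Notch3, a receptor of mural cells, at 8.0 (PRP-MNs) and 8.15 FPKM (NC), and Rgs5, a pericyte regulator of G protein signalling, at 23.7 and 13.3 FPKM. Adipocyte markers passed 2-fold upward for 3 of 8 in PRP-MNs, 7 in MNs and 3 in PRP. Of 8 skeletal muscle markers, none passed 2-fold in PRP-MNs or in MNs, and 3 did upward in PRP. Of 10 platelet genes, 3 passed 2-fold upward in PRP-MNs (median 0.03), 3 in MNs and 1 in PRP, and none passed it downward. Treml1 was listed at 0 in every library, Gp9 and Gp1bb were below 1 FPKM throughout, and Gp9 was listed at 0 in PRP-MNs. The chemokine genes Ppbp and Pf4 of that list were at 56.1 and 236 FPKM (PRP-MNs) and at 0.31 and 21.7 FPKM (NC).

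**Figure D4:**
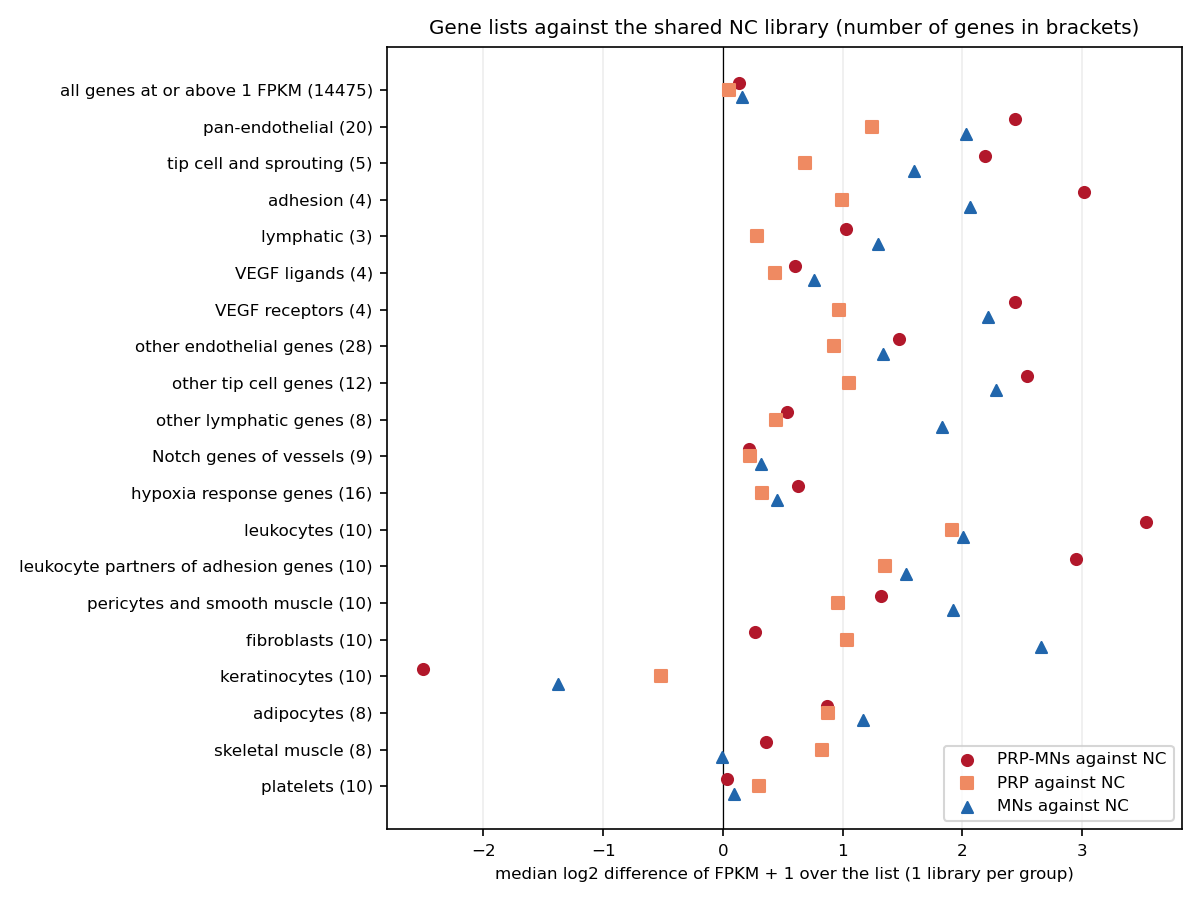
Points give the median log2 difference of FPKM + 1 from the shared NC library (horizontal axis) for each gene list (vertical axis, number of genes in brackets), in PRP-MNs, PRP and MNs. The leukocyte, pan-endothelial, adhesion and VEGF receptor lists lie to the right. In PRP-MNs, VEGF ligands (0.60), other lymphatic genes (0.53) and Notch genes of vessels (0.22) lie closer to all genes (0.13). Keratinocyte markers lie to the left at -2.50 in PRP-MNs, and fibroblast markers are farthest right in MNs at 2.66.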

How the data were processed

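FPKM values of skin RNA were deposited by the authors in 1 table, with 1 column for each library. The input was 1 μg of RNA and the kit NEBNext Ultra for Illumina, per the labels' protocols, and per the submitters' processing notes the build was GRCm38. Not given in the sources used here were the aligner, quantification tool, annotation and use of strand. From this table, log2 ratios of FPKM + 1 were computed for 6 pairs of libraries with Python 3.11.15, pandas 2.3.3 and NumPy 2.4.6. Members and lists were chosen with earlier results of these data known. All 41 members are named, and of each other list the 2 genes highest and the 2 lowest in PRP-MNs against NC, with any cell type marker listed at 0 throughout, are named where the list is described by gene. One such gene is not reported here. Coordinates and transcript lengths came from GENCODE M21 and fragment numbers from the longest transcript. Depth came from genes with 1 annotated transcript, of whose low values 24.3% to 28.8% lay within 0.02 of a whole fragment, against medians of 2.97% to 3.37% at other steps. Whole reads could not be recovered for most genes, so no count test was run. The calculation was tested on simulated data, built from genes at a mean of 5 FPKM or more and without counting error. That test does not cover members at lower values. Other pseudocounts, scalings and member sets were tried.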

Additional observations from a re-analysis of the deposited data

How the results depend on the processing

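Counts of members at least 2-fold higher stayed within 1.5 times of those reported under the scaling and pseudocount alternatives, except that PRP against NC gave 33 of 41 in place of 19 with a pseudocount of 0.1. Leaving out the 19 members that other cells also make shortens the list to 22. The counts were then 22 for PRP-MNs against NC, 20 for MNs against NC, 11 for PRP against NC and 15 for PRP-MNs against PRP. The median difference lies near 2-fold in 2 comparisons and crossed it there. For PRP against NC it was 1.49 with a pseudocount of 0.1, 1.16 with 0.5, 1.19 over the 28 members at a mean of 5 FPKM or more, and 1.03 without the shared members. For PRP against MNs it was -1.0 with libraries rescaled to the same sum and -1.08 with a pseudocount of 0.1. None of these medians changed sign. For the single roles, 26 of 252 medians crossed 2-fold, among them in PRP against NC with a pseudocount of 0.1 those of tip cell (1.62), adhesion (1.97), lymphatic (1.01) and VEGF receptor genes (1.30). The order of the roles by median depends on the pseudocount, since tip cell genes were above adhesion genes in PRP-MNs against NC with 0.1 (4.72 and 4.38) and below them with 1 (2.19 and 3.01). With the common sum, the median over all genes went from 0.13 to 0.26 in PRP-MNs against NC and from 0.16 to 0.32 in MNs against NC. Over all genes, centring changed the shares higher and lower in MNs against NC from 15.1% and 6.85% to 12.0% and 8.70%, and the common sum changed those in PRP against MNs from 4.42% and 5.73% to 3.54% and 7.51%. Without a filter on low values, the share of genes at least 2-fold higher in PRP-MNs against NC was 9.63%, in place of 17%. Low fragment numbers limit Esm1 and Pgf most in NC, then Sele, Icam2 and Apln, at about 11, 16 and 17 fragments. With 1 library per group no library could be left out.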

Other observations

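Of 13 inhibitors of angiogenesis, 7 passed 2-fold upward in PRP-MNs against NC (median 1.00), where 17% of all genes did. In MNs 8 did (median 1.27, 15.1% of all genes) and in PRP 4 (0.47, 7.27% of all genes), and none was at least 2-fold lower in the 3 comparisons. Thbs1, thrombospondin-1, was at 477 (PRP-MNs), 96.8 (MNs), 28.7 (PRP) and 27.6 FPKM (NC). Cxcl10, an interferon-induced chemokine that also restrains vessel growth, was at 303, 4.59, 12.8 and 1.91 FPKM in that order. Both stood apart in PRP-MNs, the library in which Apln and Angpt2 were highest. Sema3a, a ligand of neuropilin-1, at 1.80 (PRP-MNs) and 1.91 FPKM (NC), and Thbs2, at 32.1 and 30.9 FPKM, had the lowest differences of the list in PRP-MNs, and Thbs2 was at 25.6 FPKM in PRP.

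Hypoxia response genes had lower medians than the pan-endothelial genes. Of 16, 5 passed 2-fold upward in PRP-MNs against NC (median 0.62), 1 in MNs (0.45) and 1 in PRP (0.33). The share of all genes was 17%, 15.1% and 7.27%, so the counts in MNs and in PRP were not above it. Hk2, a hexokinase, was at 35.0 (PRP-MNs) and 11.4 FPKM (NC), and P4ha1, a collagen prolyl hydroxylase, at 25.5 and 8.70 FPKM. Egln1, the oxygen sensor PHD2, was at 19.5 and 33.0 FPKM, and Bnip3 at 35.4 (PRP-MNs), 88.1 (PRP), 29.1 (MNs) and 37.4 FPKM (NC).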
